A study of Rattus norvegicus with 10 samples.

Results

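The small leucine-rich proteoglycans considered here are 8 secreted matrix proteins encoded by Dcn (decorin), Bgn (biglycan), Aspn (asporin), Lum (lumican), Fmod (fibromodulin), Prelp (proline- and arginine-rich end leucine-rich repeat protein), Omd (osteomodulin) and Ogn (osteoglycin). They were taken by name: every probe set whose platform annotation gave 1 of these symbols alone was used, which found 12 probe sets for all 8 genes, among 12255 genes with a tested probe set. Ogn had 4 probe sets, Aspn had 2 and each of the other genes had 1. The brightest probe set of a gene leads below, and the others are given beside it.

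Levels came from 10 Affymetrix rat expression arrays on mammary tumors of female Sprague-Dawley rats, a chemical carcinogenesis model in which all animals had received 1 oral dose of the carcinogen 7,12-dimethylbenz(a)anthracene (DMBA, 100 mg/kg). Paired samples came from 5 tumors of Bloom-Richardson grade II (codes 09I1, 11D2, 12I1, 29I1, 43D1). The final sample was taken at 19 weeks of age, after the DNA-intercalating drug adriamycin (doxorubicin) had been given by tail vein for 6 weeks, 1 mg/kg each week, and the basal sample was an untreated needle biopsy at 12 weeks. The comparison asks what differed within a tumor between the final sample (n = 5) and the basal one (n = 5). No group of untreated tumors at the later age was analysed here, and the final sample is labelled as total tumor (the series text names it a needle sample too). The codes that end the sample titles also run separately in each group, and what they stand for is not given. Treatment, age, kind of sample and anything these codes mark therefore cannot be told apart. Whether any tumors shared a rat is not given, so the p-values reflect differences among these tumors only. In whole tissue, fewer cells of a type and less RNA per cell cannot be told apart either.

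Small leucine-rich proteoglycans are made mostly by fibroblasts and related mesenchymal cells. A curved array of leucine-rich repeats lets them bind fibrillar collagen, where they regulate the width and spacing of fibrils, and several also bind growth factors such as TGF-beta. By sequence and gene structure, Dcn, Bgn and Aspn belong to class I, Lum, Fmod, Prelp and Omd to class II, and Ogn to class III. Decorin and biglycan carry chondroitin or dermatan sulfate chains, and lumican, fibromodulin, osteomodulin and osteoglycin can carry keratan sulfate. In breast tumors, decorin and lumican are among the abundant transcripts of the stroma.

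Many of these genes are neighbours in the rat genome. In RefSeq's table for the GRCr8 assembly, Ogn, Omd and Aspn follow each other on chromosome 17 with no other listed gene between them, and the related gene Ecm2 follows Aspn with 1 listed gene between. Dcn lies next to Lum on chromosome 7 and Prelp next to Fmod on chromosome 13, while Bgn is on chromosome X. RefSeq promoter windows, from 250 bases before to 50 bases after the gene's start, were at hand for 5 of the 8 genes. The windows of the 3 neighbours on chromosome 17 are shown because Ogn and Omd had the largest mean changes of the family, and that of Lum because the change of Ogn exceeded that of Lum in 5 of 5 tumors. The search covered both strands for 4 motifs, and capitals mark the matches. The TATA box was searched as TATAAA. The site of the AP-1 factors was searched as TGANTCA. The core bound by SMAD proteins, which carry TGF-beta signals, was searched as CAGAC. The GC box was searched as CCGCCC.
Ogn, chr17:15258946-15259245, minus strand, GRCr8: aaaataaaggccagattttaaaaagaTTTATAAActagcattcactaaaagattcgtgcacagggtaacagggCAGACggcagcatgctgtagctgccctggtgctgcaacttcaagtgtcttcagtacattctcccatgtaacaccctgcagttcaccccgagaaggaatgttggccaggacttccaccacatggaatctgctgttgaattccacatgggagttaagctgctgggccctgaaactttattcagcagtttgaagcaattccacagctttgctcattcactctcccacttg
Omd, chr17:15274821-15275120, minus strand, GRCr8: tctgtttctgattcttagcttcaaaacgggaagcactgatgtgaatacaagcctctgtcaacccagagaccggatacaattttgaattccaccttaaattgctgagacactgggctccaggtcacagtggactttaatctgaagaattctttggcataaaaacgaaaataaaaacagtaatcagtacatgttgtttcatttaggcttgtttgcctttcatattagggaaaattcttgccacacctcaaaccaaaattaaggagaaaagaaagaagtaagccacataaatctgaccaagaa
Aspn, chr17:15310420-15310719, minus strand, GRCr8: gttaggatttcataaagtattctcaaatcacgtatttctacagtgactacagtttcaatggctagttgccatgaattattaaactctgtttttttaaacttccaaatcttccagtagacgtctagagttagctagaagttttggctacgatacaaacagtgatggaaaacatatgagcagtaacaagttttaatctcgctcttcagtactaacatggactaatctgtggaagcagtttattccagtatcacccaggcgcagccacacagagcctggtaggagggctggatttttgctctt
Lum, chr7:34245456-34245755, plus strand, GRCr8: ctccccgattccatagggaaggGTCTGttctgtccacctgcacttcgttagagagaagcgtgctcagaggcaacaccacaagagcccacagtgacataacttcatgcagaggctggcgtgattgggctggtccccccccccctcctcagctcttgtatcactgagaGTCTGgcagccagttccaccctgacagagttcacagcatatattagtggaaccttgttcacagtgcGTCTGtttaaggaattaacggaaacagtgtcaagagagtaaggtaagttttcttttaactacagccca

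The window of Ogn held 2 TATA box matches, which overlap each other on opposite strands, and 1 SMAD core. That of Lum held 3 SMAD cores, and those of Omd and Aspn held none of the 4 motifs. The remaining window at hand, that of Fmod, is not shown and held 2 SMAD cores and 1 GC box. Of all 33469 RefSeq windows of this length, 14.2% held the TATA box, 7.33% the AP-1 motif, 50.1% the SMAD core and 33.1% the GC box. The matches describe the letters alone.

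One library differed from the rest, the final sample of 09I1, and it enters every mean below. Over all probe sets it correlated with the remaining arrays at a median of 0.938, where those 9 arrays had 0.975 to 0.984. The gap between its 3' and 5' beta-actin probe sets, a measure of RNA quality, was 2.61 on the log2 scale, while those 9 had 0.72 to 0.96. The tissue label was met by 9 luminal epithelial markers, whose mean level was 10.90 to 11.58 in final and 11.23 to 11.51 in basal samples. All levels below are log2 values from robust multichip averaging, and a change is final minus basal within a tumor, with per-tumor values always listed in the order 09I1, 11D2, 12I1, 29I1, 43D1.

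None of the 8 genes changed past the threshold. In the limma fit across 23281 probe sets with the tumor as a block, 0% of all probe sets had a Benjamini-Hochberg adjusted p under 0.05, and the members' count was also 0. The smallest adjusted p over all probe sets was 0.233, and 935 probe sets had an unadjusted p under 0.05, of which 399 were higher and 536 lower in final samples. Among the 8 genes, 2 (Ogn and Omd) were higher with an unadjusted p under 0.05, where 1.78% of the 12255 genes were. Without tumor 09I1, 3 of the 8 (Prelp, Omd and Ogn) met that rule against 3.39% of all genes, and their smallest limma adjusted p was 0.466. The unadjusted limma p of Ogn was 0.062 without 11D2, 0.071 without 12I1 and 0.060 without 43D1. Under the methods' paired test, 0 of the 8 had an unadjusted p under 0.05, and 1081 of all probe sets did. The median change over the 8 genes was 0.36, against 0.014 over all genes, and 5 of the 8 had positive means. That median was 0.73 without 09I1 and 0.064 without 11D2.

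Osteoglycin, the class III member, had the largest mean change. Its brightest probe set (1376749_at) read 6.40, 7.82, 7.62, 7.35 and 8.98 in the final samples, and 6.24, 5.41, 5.46, 7.51 and 7.13 in the basal biopsies. The final sample was well above the basal one in 11D2, 12I1 and 43D1 and close to it in 09I1 and 29I1, and the groups overlapped. The means were 7.63 ± 0.93 in final and 6.35 ± 0.96 in basal samples (SD, n = 5 each). The change was 1.28 ± 0.42 (SE), positive in 4 of 5 tumors, with limma adjusted p = 0.977. By tumor it ran from -0.17 in 29I1 to 2.41 in 11D2.

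The other 3 probe sets of Ogn were dimmer. Their changes were 1.11 ± 0.41 (1383263_at), 1.18 ± 0.42 (1385248_a_at) and 0.96 ± 0.23 (1390450_a_at) (SE), the first pair with 3 of 5 tumors higher. Across the 10 arrays the 4 correlated with each other at 0.84 to 0.99. The dimmest, 1390450_a_at, ran from 4.71 to 6.09 in final and from 3.39 to 4.62 in basal samples. These ranges did not overlap and its change was positive in 5 of 5 tumors, the only 1 of the 12 probe sets for which either held, with limma adjusted p = 0.850. Its basal values in 11D2 (3.39) and 12I1 (3.75) lay below the lower quartiles of those arrays (4.05 and 4.11) and that in 09I1 (4.16) close to its own (4.13), so the gap between the groups and the size of the change are uncertain. In 09I1, whose final array differed from the rest, 1390450_a_at changed by 0.66. The other probe sets changed there by 0.16 (1376749_at), -0.11 (1383263_at) and -0.15 (1385248_a_at). Final and basal values did not overlap for 1.16% of all tested probe sets. As the mean of its 4 probe sets, Ogn had a change of 1.13.

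Osteomodulin, a class II member known from bone matrix, followed Ogn. Its probe set read 4.32, 5.45, 5.76, 4.85 and 6.08 in final samples, and 4.43, 4.33, 4.19, 4.35 and 4.02 in the basal biopsies. All 5 basal values lay close together, from 4.02 to 4.43, near or somewhat above the lower quartiles of the basal arrays (4.01 to 4.13). The final values were spread more widely, with 09I1 the only one inside the basal range. Omd averaged 5.29 ± 0.71 in final and 4.26 ± 0.16 in basal samples (SD, n = 5 each). Its change was 1.03 ± 0.31 (SE), positive in 4 of 5 tumors, with limma adjusted p = 0.977. Because the basal level is so low, the size of the change is uncertain.

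Asporin, the class I neighbour of Omd, inhibits TGF-beta signalling and varied more than the mean shows. Final levels (1381504_at) were 3.64, 6.05, 5.48, 4.58 and 5.96, against basal levels of 4.70, 3.94, 4.24, 6.73 and 4.28. The final sample was higher by 1.24 to 2.12 in 11D2, 12I1 and 43D1 and lower in 09I1 (-1.06) and 29I1 (-2.15), and the basal biopsy of 29I1 had the highest Aspn of all 10 arrays. The mean change was 0.37 ± 0.64 (SE; limma adjusted p = 0.977) and -0.073 without 11D2. Its other probe set (1380726_at) gave 0.43 ± 0.52 (SE), and the 2 correlated at 0.98 over the arrays. The lowest levels of Aspn, in the final sample of 09I1 and the basal biopsy of 11D2, lay below the lower quartile of their arrays.

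**Figure D1:**
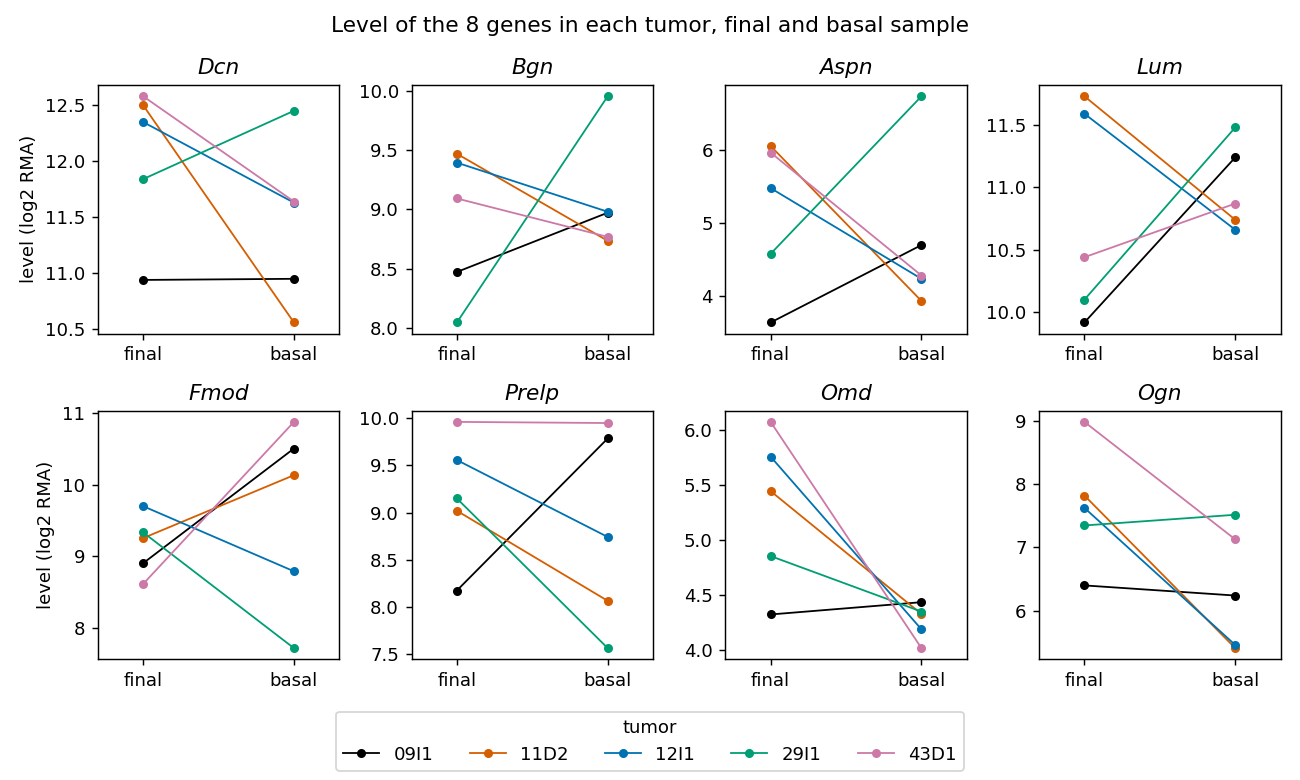
Level (log2 RMA, vertical axes, one scale per gene) of the brightest probe set of each of the 8 genes in the final (left) and basal (right) sample, with a line for each of the 5 tumors. Lines of 11D2 and 12I1 run down to the right for 7 and 8 of the 8 genes, while those of 29I1 and 09I1 often run the other way.

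Decorin, the best known collagen-binding proteoglycan, had high levels throughout. Final samples read 10.94, 12.50, 12.35, 11.84 and 12.58, and basal biopsies read 10.95, 10.56, 11.63, 12.45 and 11.64. Dcn was higher in the final sample of 11D2, 12I1 and 43D1, almost level in 09I1 and lower in 29I1, so the groups overlapped. The mean was 12.04 ± 0.68 in final and 11.45 ± 0.73 in basal samples (SD, n = 5 each), with a change of 0.59 ± 0.34 (SE; limma adjusted p = 0.977). It was 0.26 without 11D2 and 0.90 without 29I1.

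Biglycan, the class I relative of decorin that also signals through Toll-like receptors, had final levels of 8.47, 9.47, 9.39, 8.05 and 9.09. Its basal levels were 8.97, 8.74, 8.98, 9.95 and 8.77. The basal biopsy of 29I1 stood well above the other 4, and the final sample of the same tumor was the lowest of all 10 arrays. The change of Bgn was -0.19 ± 0.38 (SE; limma adjusted p = 0.977), positive in 3 of 5 tumors, and 0.24 without 29I1.

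Lumican, a class II keratan sulfate proteoglycan that keeps the cornea clear, had final levels of 9.92, 11.73, 11.59, 10.10 and 10.44. Its basal levels of 11.24, 10.74, 10.66, 11.48 and 10.87 lay within a narrower band, so that final samples held both the highest and the lowest arrays. The final samples thus split into a high pair (11D2 and 12I1) and 3 low ones. The change of Lum was -0.24 ± 0.40 (SE; limma adjusted p = 0.977), positive in 2 of 5 tumors, 0.026 without 09I1 and 0.041 without 29I1.

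Fibromodulin, a class II member that controls collagen fibril assembly and cross-linking, often differed in direction from the rest of the family. Final levels were 8.91, 9.25, 9.70, 9.33 and 8.62, and basal levels were 10.50, 10.13, 8.79, 7.73 and 10.87. The basal biopsies had a range of 3.15 and enclosed all the final values, whose SD was 0.42 against 1.31 in basal samples (n = 5 each). Fmod was lower in the final sample where its basal level was high and higher where it was low (-2.26 in 43D1, 1.61 in 29I1), although a change contains the basal level. The 7 tested markers of myoepithelium and smooth muscle had median changes of -0.66, -0.33, 0.073, 1.08 and -1.04, with 1, 2, 4, 7 and 1 of them higher, which are the signs and the order of tumors of the Fmod changes (-1.60, -0.88, 0.91, 1.61 and -2.26). Their mean level ran from 10.34 to 11.03 in final and from 9.998 to 11.40 in basal samples, and their part in the changes of Fmod was not tested. Among 8 genes and many lists this match was not the only one: Lum had the signs and the order of tumors of the collagen medians given below. The mean change of Fmod was -0.44 ± 0.56 (SE; limma adjusted p = 0.977), and 0.0092 without 43D1.

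Prelp, which encodes a heparin-binding class II protein that links basement membranes to collagen, had final levels of 8.18, 9.02, 9.56, 9.15 and 9.96, and basal levels of 9.78, 8.07, 8.74, 7.57 and 9.95. It was higher in the final sample of 4 tumors, by only 0.012 in 43D1, and lower by -1.61 in 09I1. The change was 0.35 ± 0.43 (SE; limma adjusted p = 0.977), and it was 0.84 without 09I1 and 0.043 without 29I1. Its change lay within 0.1 unit of that of its neighbour Fmod in 09I1, 12I1 and 29I1, and above it by 1.83 in 11D2 and 2.27 in 43D1.

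**Figure D2:**
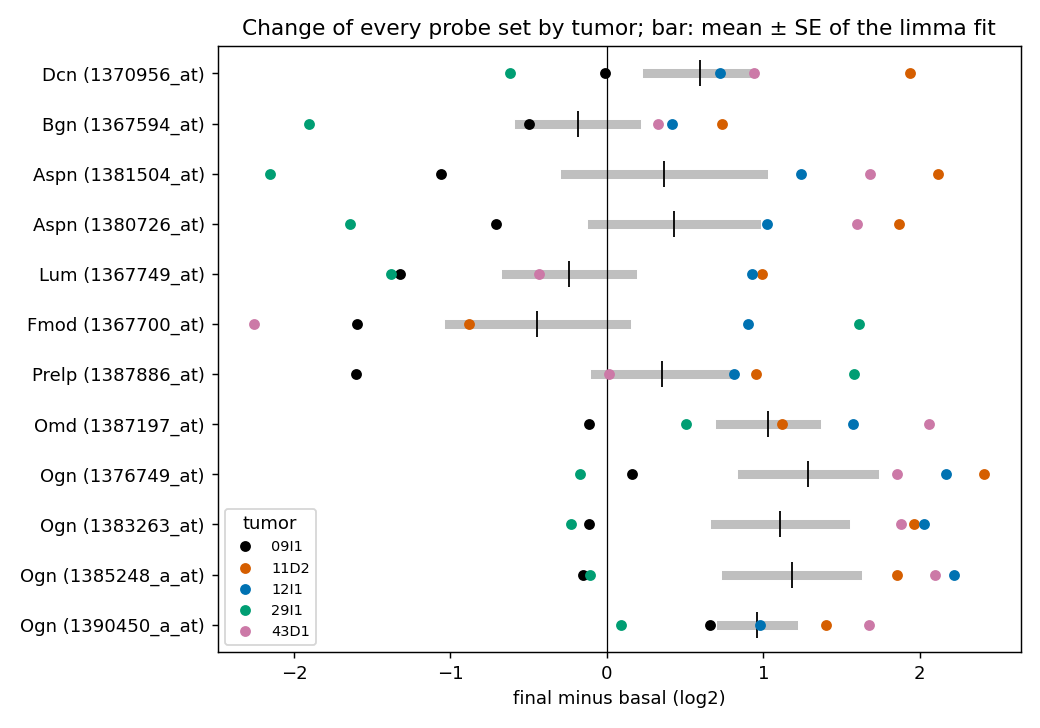
Final minus basal (log2, horizontal axis) for each of the 12 probe sets, with a point for each tumor, a vertical tick at the mean and a grey bar of ± SE from the limma fit (n = 5). Ogn and Omd lie mostly right of 0, with means of 0.96 to 1.28, whereas the points of Fmod run from -2.26 to 1.61.

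By tumor, 8 of the 8 genes were higher in the final sample of 12I1, with a median change of 0.92, and 7 of 8 in 11D2, with a median of 1.06. In 43D1 6 of 8 were higher (median 0.63), in 29I1 3 of 8 (median -0.39) and in 09I1 1 of 8 (median -0.78). Over all genes the median changes by tumor were 0.15, -0.015, 0.050, -0.038 and -0.0090. Ogn had the highest change of the family in 09I1, 11D2 and 12I1, Omd in 43D1 and Fmod in 29I1. Ogn, Omd and Prelp, which makes 3 of the 8, were higher in at least 4 of 5 tumors, and 20.7% of all genes were. By the brightest probe set, 0 of the 8 had the same sign in 5 of 5 tumors, against 5.83% of all genes. The range over the 10 arrays was 1.81 to 3.57 for the 8 genes (median 2.23), against a median of 0.98 and a 90th percentile of 2.12 over all genes.

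Within the same tumors, Ogn and Omd had higher changes than several other members, but with 5 tumors no difference could pass its test. All 28 pairs of members were compared by the difference of their changes, with a two-sided exact permutation test over the 5 tumors, whose smallest possible p is 0.0625; this comparison was chosen after the data were seen. For 7 pairs the difference had the same sign in 5 of 5 tumors, each with exact permutation p = 0.0625 and adjusted p = 0.25 over the 28 pairs, so none passed. The change of Ogn exceeded that of Lum by 1.53 ± 0.44 (SD, n = 5 tumors), with 1.21 to 2.29 in single tumors. It exceeded the change of Bgn by 1.47 ± 0.46, that of Aspn by 0.92 ± 0.74 and that of Dcn by 0.69 ± 0.50 (SD, n = 5). The change of Omd exceeded that of Lum by 1.27 ± 0.95 and that of Bgn by 1.22 ± 0.88, and the change of Dcn exceeded that of Bgn by 0.78 ± 0.44 (SD, n = 5). Differences of changes cancel any shift that an array gives both genes. The change of Dcn exceeded that of its neighbour Lum by 0.84 ± 0.64 (SD), positive in 4 of 5 tumors, with exact permutation p = 0.125 (adjusted p = 0.438).

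**Figure D3:**
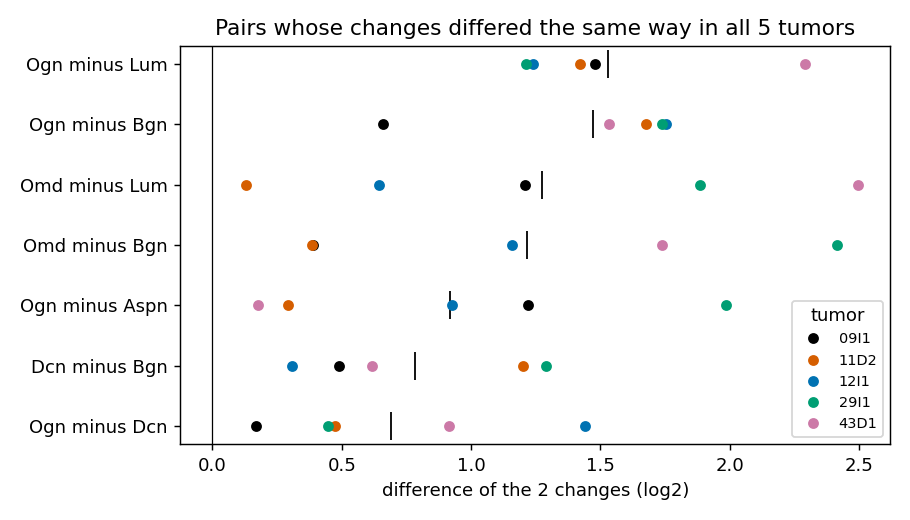
Difference between the changes of 2 family members (log2, horizontal axis) in each of the 5 tumors, with a tick at the mean, for the 7 of 28 pairs with the same sign in all 5. Ogn minus Lum lies between 1.21 and 2.29. No point falls below 0 because the pairs shown were chosen for their shared sign.

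The levels of the genes fell into loose groups across the 10 arrays, given as a description since arrays of a tumor share a source. Dcn correlated at 0.86 with Aspn and at 0.84 with Ogn, Omd at 0.77 with Ogn, and Bgn at 0.83 with Lum and 0.80 with Aspn (Pearson, n = 10 arrays). Neighbours did not always go together: Dcn and Lum had 0.42, Fmod and Prelp 0.55, and Aspn and Omd 0.57. Fmod was negatively related to Aspn (-0.53), Dcn (-0.51), Bgn (-0.40), Ogn (-0.31) and Omd (-0.22). Leaving out the final array of 09I1 kept the leading values, with 0.83 for Dcn and Aspn and 0.84 for Dcn and Ogn (n = 9), and gave -0.70 for Fmod and Aspn. Against the mean of the other 7 genes, Dcn stood highest at 0.74 and Fmod lowest at -0.27 (n = 10). Without the final array of 09I1, Ogn stood highest at 0.77, Dcn had 0.69 and Fmod was lowest at -0.405 (n = 9).

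**Figure D4:**
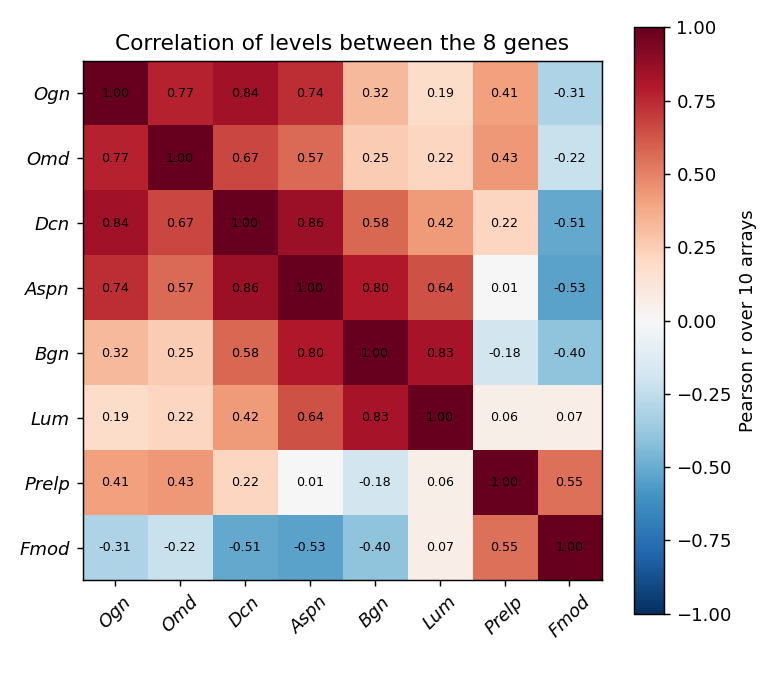
Pearson correlation of levels over the 10 arrays between each pair of the 8 genes, from -1 (blue) to 1 (red). Ogn, Omd, Dcn and Aspn form a block of 0.57 to 0.86, and Fmod is negative with 5 of the other 7.

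The genes whose pattern over the arrays was most like the mean of the 8 were Chmp1b, a subunit of the ESCRT membrane-scission machinery (r = 0.93), Npy1r, a neuropeptide Y receptor (0.90), Slc35a3, a Golgi nucleotide-sugar transporter (0.89), and Sox17, an endothelial transcription factor (0.88). They were followed by Fbxl7, an F-box protein (0.88), Srpx (0.88), Add3, an adducin of the membrane skeleton (0.87), and Fbln5, an elastic fibre protein (0.87), all Pearson over 10 arrays. Over the 9 arrays without the final one of 09I1 these ran from 0.83 to 0.91. Among all 12255 genes the median was -0.079 and the 95th percentile 0.61. Of these 8, Npy1r had the largest change (0.67, limma adjusted p = 0.977).

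Genes that work with the family were followed as 6 lists, in which 0 members passed the threshold in either direction. Of the other small leucine-rich proteins, 6 of 11 had a tested probe set, with a median change of 0.16. Islr, a secreted leucine-rich protein of mesenchymal cells, had a change of 0.71, Ecm2, the neighbour of Aspn, one of 0.72, and Podn (podocan) one of 0.14. Ecm2 was higher by 1.81 in 11D2, 1.08 in 12I1, 0.84 in 43D1 and 0.46 in 09I1, with -0.60 in 29I1. The order of tumors was the same for Ogn, for Bgn and Lum, and for the median of the collagens below. Islr, Ecm2 and Podn each had limma adjusted p = 0.977, as did all the genes named in the next paragraphs from the 6 lists.

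Of the collagens that the family binds, all 10 were tested, 2 had positive and 8 negative mean changes, and the median was -0.16. Their direction differed between tumors, with 9 of 10 higher in 11D2 (median 0.90) and 8 of 10 in 12I1 (0.31), and with 0 of 10 higher in 09I1 (-0.79), 2 in 29I1 (-1.36) and 1 in 43D1 (-0.48). Col1a1, the main chain of type I collagen, had levels of 10.59 ± 1.22 in final and 11.36 ± 0.40 in basal samples (SD, n = 5 each), a change of -0.77 ± 0.46 (SE). Col1a2 had a change of -0.50 and Col5a2, of a collagen that limits fibril width, one of -0.22, and these were -0.25 and -0.10 without 09I1. Against the median change of the 10 collagens, Ogn was higher by 1.57 ± 0.55, Omd by 1.31 ± 0.92 and Dcn by 0.88 ± 0.38 (SD, n = 5), in 5 of 5 tumors each. That makes 3 of the 8 genes, where 1.04% of all genes lay above the collagen median in 5 of 5 tumors. It also held for 3 of 13 fibroblast markers (Pdgfra, Dpt and Islr) and for 2 of the 6 other leucine-rich genes (Ecm2 and Islr, the second being in both lists). Lum and Bgn differed from the collagen median by 0.042 ± 0.41 and 0.099 ± 0.50 (SD).

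Enzymes that build or modify glycosaminoglycan chains had a median change of 0.023 over 23 tested genes, 12 with positive and 11 with negative means. Chsy1, a chondroitin synthase, had a change of -0.31, Fam20b, the xylose kinase of the linker, one of -0.28, and Dsel, a dermatan sulfate epimerase, one of 0.38 (0.21 without 09I1). Fam20b was negative in all 5 tumors, with -1.01 in 09I1 and -0.15 to -0.060 in the others. Enzymes of collagen cross-linking and propeptide removal had a median of -0.12 over 9 tested of 16, with Plod1, a lysyl hydroxylase, at -0.53, Bmp1, which also cleaves the biglycan propeptide, at -0.28, and Plod2 at -0.40. Without 09I1, Bmp1 was at -0.48 and Plod2 at -0.18. Plod1 was the only gene of the 6 lists with an unadjusted p under 0.05.

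Growth factors and receptors that bind family members had a median of 0.068 over 15 tested genes. Bmp4 had a change of 0.44, Egfr, a receptor for decorin, one of 0.35, and Kdr, a vascular growth factor receptor, one of -0.38. Bmp4 was 0.29 without 09I1. Other matrix and cell surface proteoglycans had a median of -0.036 over 16 tested genes, with Agrn at -0.23, Gpc6 at -0.37 and Esm1 at -0.37. Gpc6 and Esm1 were at -0.16 and -0.14 without 09I1.

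Markers of other cell types differed between the final and basal samples of single tumors. The 13 fibroblast markers had median changes of 0.95 in 11D2 (11 of 13 higher), 0.64 in 12I1 (13 of 13), 0.23 in 43D1 (9 of 13), 0.24 in 09I1 (7 of 13) and -0.95 in 29I1 (1 of 13), and their mean level ran from 8.44 to 9.46 in final and from 8.29 to 9.44 in basal samples. In 11D2, where 7 of the 8 proteoglycan genes were higher, 9 of 9 skeletal muscle markers were higher with a median of 4.81, and 7 of 7 adipocyte markers with a median of 2.26. The mean level of the muscle markers ran from 4.70 to 9.87 in final and from 4.53 to 5.58 in basal samples, and that of adipocyte markers from 5.22 to 7.44 in final and from 5.16 to 7.08 in basal samples. In 12I1 the medians were 0.086 for muscle and -0.087 for adipocytes, and 8 of 8 proteoglycan genes were higher there. In 29I1 adipocyte markers had a median of -2.12, macrophage markers one of -1.33 and endothelial markers one of -0.73. Macrophage markers had a median of 1.21 in 43D1, and luminal epithelial markers stayed between -0.35 and 0.31 in all 5 tumors. The part of these cell types in the changes of the proteoglycan genes was not tested.

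**Figure D5:**
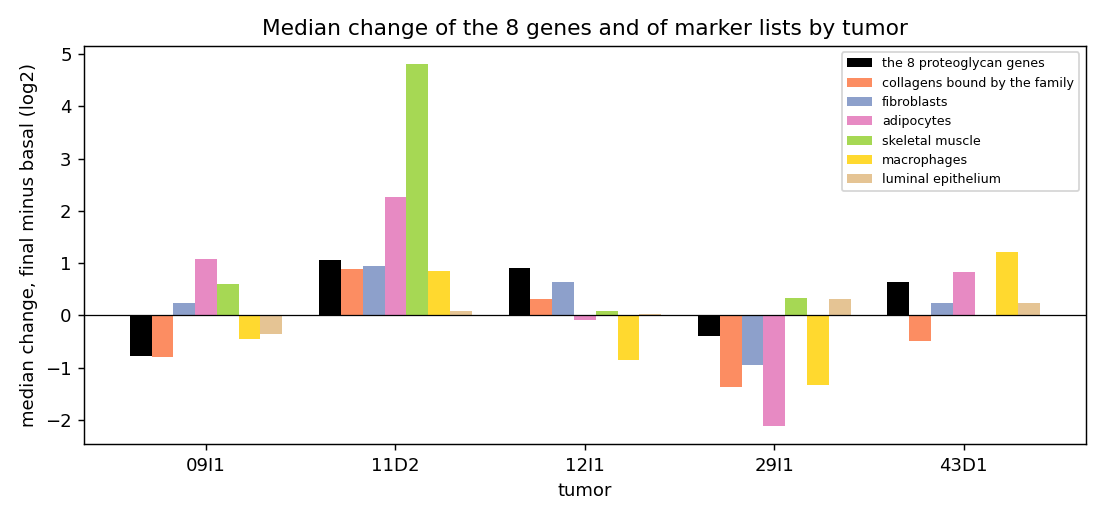
Median change (log2, vertical axis) of the 8 proteoglycan genes (black bars) and of marker lists in each tumor, final minus basal. The black bar is 1.06 in 11D2 beside 4.81 for skeletal muscle, 0.92 in 12I1 beside 0.64 for fibroblast markers, and below 0 in 29I1 and 09I1.

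Set against the fibroblast markers, Ogn was higher than their median change by 1.06 ± 0.72 and Omd by 0.81 ± 0.90 (SD, n = 5), each in 4 of 5 tumors, with 09I1 the exception (-0.083 and -0.35). Bgn lay below it in 4 of 5 tumors, by -0.41 ± 0.43 (SD), and Lum in 3 of 5, by -0.47 ± 0.72. By this measure 0 of the 8 were higher in 5 of 5 tumors, against 0.204% of all genes. Of the 6 other leucine-rich genes 2 were (Ecm2 and Islr, the second itself a fibroblast marker), and of the 10 collagens 0. The remaining lists had median changes of 0.14 for endothelium, -0.052 for myoepithelium and smooth muscle (by tumor beside Fmod) and 0.54 for T and NK cells. They were -0.28 for mast cells, 0.22 for nerve and 0.11 for cartilage, bone and tendon, of which 3 of 12 genes were tested. Each of these lists had medians of either sign by tumor, from -0.85 to 1.12 for T and NK cells and from -1.05 to 0.91 for mast cells.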

How the data were processed

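The authors deposited log2 values for 31099 probe sets on 10 arrays. Per the submitters' processing notes and the series' design text, they were normalized by robust multichip averaging. A filter on weak signals and controls is also described, but the table still held 57 control probe sets. Levels were used as deposited. The authors' paired test was kept as an alternative.

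Control probe sets and the dimmest 25% by mean were left out, leaving 23281. All of them entered one linear model of final minus basal (limma 3.58.1, R 4.3.3), which had a term for each tumor and a prior variance that followed intensity, and p-values were adjusted by Benjamini-Hochberg with a threshold of 0.05. The fit was tested on simulated data. Pairing rests on the labels' tumor codes: deviations of paired arrays correlated at -0.15 to 0.22. Pairs of members were compared with scipy 1.17.1.

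Names came from the platform annotation. Of 20826 probe sets with 1 symbol (436 had several, 9780 none), 20758 matched RefSeq (GRCr8) by Entrez identifier, and 0 symbols changed. All 8 members were named, with the 3 genes of smallest p in each of 6 related lists and the 8 most correlated genes. Members, lists and tests were chosen with earlier results of these data known. The number of arrays limits the precision.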

Additional observations from a re-analysis of the deposited data

Results flagged for a closer look

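Among 24 sets of 5 values (final level, basal level and change of each of the 8 genes), 2 held a value far from its neighbours, where about 1 in 20 is flagged by chance (1.2 of 24). Both were in the basal biopsy of tumor 29I1. Its Bgn level was 9.95, with the nearest other basal biopsy at 8.98. Its Aspn level was 6.73, with the nearest at 4.70. In the same biopsy Dcn, Lum and Ogn were also the highest of the 5 basal samples, and Fmod and Prelp the lowest.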

How the results depend on the processing

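The number of probe sets past the adjusted threshold was 0 in all 14 alternatives tested at that level, from no replicate block (0, with 955 at an unadjusted p under 0.05) to array weights (2440 unadjusted) and the methods' paired t-test (1081 unadjusted). The median change over the 8 genes was 0.36, also without the replicate block, which leaves mean changes as they are. It was 0.93 with array weights, which gave tumor 09I1 the lowest weight (0.225) and 11D2, where the median was 1.06, the highest (3.09). It ran from 0.064 to 0.73 with a tumor left out. Over the 10 alternatives that keep all tumors, 76 of 78 gene changes kept their direction. Most of them could not turn, since changing the block, the filter, the intensity trend or the test leaves a mean change as it is. The 2 that turned were Bgn (0.15) and Lum (0.26) with array weights. With a tumor left out, changes ran from -0.42 to 0.24 for Bgn, from -0.073 to 0.99 for Aspn, from -0.55 to 0.041 for Lum and from -0.96 to 0.0092 for Fmod. Those of Prelp ran from 0.043 to 0.84 and those of Dcn from 0.26 to 0.90. Those of Ogn stayed between 1.00 and 1.65 and those of Omd between 0.77 and 1.31. By the brightest probe sets, the smallest limma adjusted p of a member with all tumors kept was 0.192, for Omd with array weights. The dimmest probe set of Ogn (1390450_a_at) had the same value in that setting. The cause of these shifts was not tested. With the dimmest 50% left out, Omd and Aspn had no value.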
